A study of Mus musculus with 45 samples.

Results

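The acute loss of the transcription factor GABPA was compared between the inner cell mass (ICM) of the mouse blastocyst and mouse embryonic stem (ES) cells kept in 2i medium (2iES cells). For each gene the degradation effect, the log2 fold change of dTAG13-treated against DMSO-treated samples, was taken in each stage, and the effect in 2iES cells was subtracted from that in the ICM. This difference is the interaction of treatment and stage, and a negative value means that the transcript ended lower, relative to its own DMSO control, in the ICM than in 2iES cells. It was measured over 8 of the 18 RNA-seq libraries of a series of 45 samples, namely 2 of ICM with DMSO, 2 of ICM with dTAG13, 2 of 2iES cells with DMSO and 2 of 2iES cells with dTAG13. In all 8, both alleles of Gabpa carry a dTAG degron, an FKBP-based tag that lets the small molecule dTAG13 bring the fusion protein to a ubiquitin ligase, and the DMSO controls carry it too. The embryos came from a knock-in mouse line backcrossed to C57BL/6J and were made by in vitro fertilization. They were cultured with 1 µM dTAG13 or DMSO from 84 h post-fertilization (hpf), and their ICM was isolated by immunosurgery, which removes the outer trophectoderm (TE), at 100 hpf, 16 h later, a time the labels call E4.5. The ES cells were E14 cells, derived from single clones picked after transfection and grown without feeders in 2i/LIF medium that also held serum, and were given 0.5 µM dTAG13 or DMSO for 24 h. Dose, length of treatment, culture medium, strain and cell makeup all changed together with stage, so that none of them can be told apart from stage in these values.

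GABPA is an ETS family factor that binds a GGAA core, mostly at promoters close to the transcription start, and acts in a complex with GABPB1 or GABPB2, which carry the activation domain. It is best known for the expression of basic cellular machinery, among it genes of mitochondria and of ribosome production. In the blastocyst, the ICM separates into epiblast (EPI), the source of the embryo proper, and primitive endoderm (PrE), while 2iES cells are a cultured counterpart of the naive EPI alone.

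The labels were first set against marker genes. All 6 EPI markers (Nanog, Sox2, Fgf4, Klf2, Tdgf1 and Pou5f1) had an FPKM of at least 1 in all 8 libraries. All 8 PrE markers (Gata4, Gata6, Sox17, Sox7, Pdgfra, Dab2, Lama1 and Col4a1) did so in the 4 ICM libraries, but 1 or 2 of the 8 in each 2iES library, where their summed FPKM was 4.11 to 6.37 against 618 to 1196 in the ICM. The ICM samples thus held both lineages, and in the RNA of such bulk samples fewer cells of a type and less RNA per cell cannot be told apart. For this time of collection, the paper reports EPI cell numbers that did not yet differ between DMSO and dTAG13. The 8 TE markers (Cdx2, Eomes, Gata2, Gata3, Krt8, Krt18, Tfap2a and Elf5) summed to 73.9 and 79.1 FPKM in the ICM with DMSO and to 858 and 851 with dTAG13, with 4 and then 7 of the 8 at 1 FPKM or more, against 134 to 177 FPKM in the 2iES libraries. Most of these TE sums came from Krt8 and Krt18, at 301 and 524 FPKM in replicate 1 of the ICM with dTAG13. In replicate 1 of 2iES cells with DMSO they had 43.4 and 116 FPKM. Markers of cumulus cells summed to at most 0.17 FPKM and those of fibroblasts to at most 3.73 FPKM in any library.

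**Figure D1:**
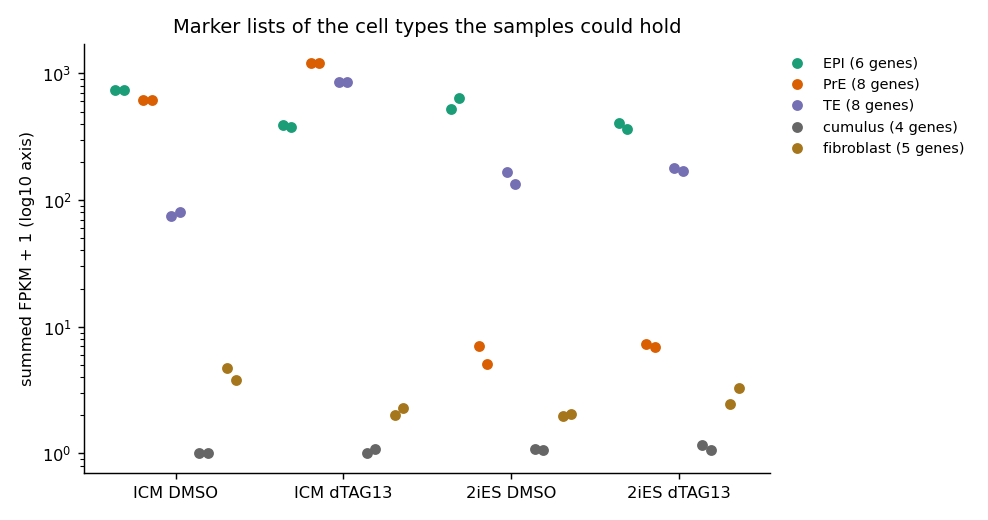
Summed FPKM (log10 axis, 1 added) of the marker lists of 5 cell types in each of the 8 libraries, 2 points a group. EPI markers were present throughout, PrE markers stood between 618 and 1196 FPKM in the ICM and at 6.37 or less in 2iES cells, and TE markers rose from 73.9 and 79.1 FPKM to 858 and 851 in the ICM with dTAG13. Most of the TE sums came from Krt8 and Krt18.

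Expected counts summed to between 18266057 and 20818291 in the ICM libraries and between 20146785 and 27660132 in the 2iES libraries. The replicates of the ICM varied little, with a biological coefficient of variation of 0.0237 against 0.159 in 2iES cells, where it came mainly from the DMSO pair. The squared difference between the 2 DMSO libraries of 2iES cells was 16.1 times that of sampling alone (median over genes), against 1.62 to 2.86 times in the other pairs. Transcripts of the mitochondrial genome took 0.371% of counts in replicate 1 and 2.17% in replicate 2 of that pair, 5.16% and 4.51% in 2iES cells with dTAG13, and 3.78% to 6.02% in the ICM. Because the effect in 2iES cells rests on this pair, counts are given below also without either of its libraries. The fit shared its estimate of the spread over all 8 libraries (coefficient of variation 0.112). An SE below is therefore not the spread of its stage alone, and SEs in 2iES cells can be too small.

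The subunits of the complex were looked at first, since the degron acts on the protein and not on the mRNA. Values per library are given as normalised CPM, read counts scaled by library total and by the trimmed mean of M values, replicate 1 first. Gabpa (chr16:84834925-84863779, plus strand, GRCm38) had 36.4 and 38.1 CPM (DMSO) against 71.2 and 71.4 CPM (dTAG13) in the ICM and 27.1 and 26.9 CPM (DMSO) against 51.5 and 52.2 CPM (dTAG13) in 2iES cells. The mRNA was thus higher with dTAG13 in both stages without overlap, by 0.94 ± 0.08 and 0.94 ± 0.08 on the log2 scale (± SE), and the interaction was -0.00 ± 0.12 (SE; adjusted p = 1.00). Its FPKM, which also corrects for the length of the isoforms in use, rose more in the ICM, and with that length as an offset the log2 interaction of Gabpa was 0.46 (adjusted p = 0.0458, against 0.711 to 1.00 in the other alternatives). Reads of Gabpa could not be separated from those of Atp5j, which overlaps its start on the opposite strand. Gabpb1 (chr2:126627442-126676337) went from 51.7 and 48.3 to 126 and 124 CPM in the ICM and from 44.3 and 43.6 to 191 and 189 CPM in 2iES cells. The rise was called in both stages and was larger in 2iES cells, with an interaction of -0.79 ± 0.10 (SE; adjusted p = 3.54e-04), under the size of 1 required for a call. Gabpb2 had an effect of 0.42 ± 0.16 in the ICM, which was not called, and rose by 1.16 ± 0.16 in 2iES cells, or by 0.91, under the size for a call, without replicate 1 of the DMSO pair.

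The degradation effect differed between the stages for a large part of the transcriptome. Of 17657 genes tested (at least 10 counts in at least 2 of the 8 libraries), 11253 reached a mean FPKM of 1 in at least 1 group of each stage (expressed in both stages) and could be called. An interaction was called at an adjusted p-value under 0.05 and a size of at least 1 on the log2 scale (quasi-likelihood test of edgeR, Benjamini-Hochberg adjusted over all genes tested). It was lower in the ICM for 1493 genes (8.46% of those tested) and higher for 1426 (8.08%), or 16.5% in either direction. Among the 11253 genes that could be called these shares were 13.3% and 12.7%. Without replicate 1 of the 2iES DMSO pair the counts were 1343 and 1389, and without replicate 2 they were 1770 and 1741. In all 3 fits 1156 and 1175 of these genes were called. Within the ICM, 2076 genes were called down (11.8%) and 1799 up (10.2%), and within 2iES cells 2416 (13.7%) and 2017 (11.4%). Among genes expressed in both stages, 15.7% were called down in the ICM and 20.3% in 2iES cells.

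The direction in each stage separated the called genes into classes. The largest were 633 genes down in 2iES cells and not called in the ICM, 567 up in 2iES cells and not called in the ICM, 400 down in the ICM and not called in 2iES cells, and 302 up in the ICM and not called in 2iES cells. Smaller classes moved in the same direction in both stages but by different amounts: 169 genes fell further in 2iES cells, 125 fell further in the ICM, 68 rose further in 2iES cells and 40 rose further in the ICM. Opposite calls were made for 123 genes (0.697% of those tested), 71 down in the ICM and up in 2iES cells and 52 the other way. A further 262 lower and 230 higher interactions belonged to genes called in neither stage. Over the same 11253 genes, Pearson's r of the effects in the 2 stages was 0.53 and Spearman's rho 0.55, a description across genes, which are not independent replicates. The stages shared no library, and r was 0.53 without replicate 1 and 0.50 without replicate 2 of the 2iES DMSO pair. The median effect of these genes was -0.08 in the ICM and -0.07 in 2iES cells.

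**Figure D2:**
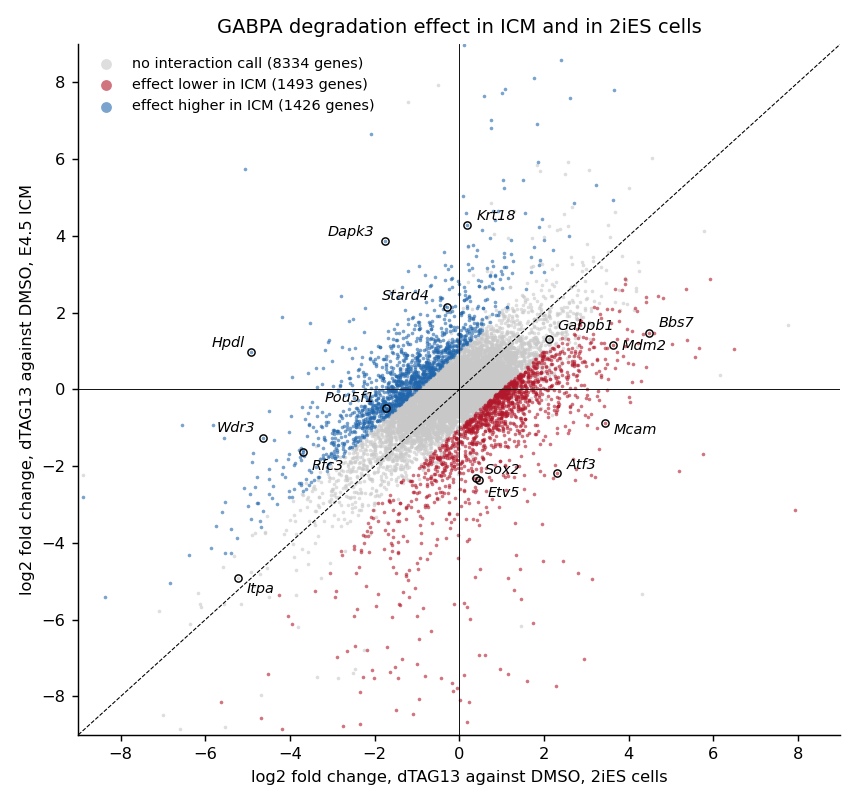
Degradation effect (log2 fold change, dTAG13 against DMSO) in 2iES cells (x axis) and in the E4.5 ICM (y axis) for the 11253 genes expressed in both stages (mean FPKM of 1 or more), each point a gene and the dashed line an equal effect. Red points (1493 genes) were lower and blue points (1426 genes) higher in the ICM, 15 genes of the text are labelled, and 19 genes lie outside the axes.

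Many genes fell in both stages with no called difference. Of 1027 genes called down in both stages, 733 had no called interaction. Itpa (chr2:130667610-130681614), which encodes the enzyme that clears inosine triphosphate from the nucleotide pool, went from 93.4 and 89.8 to 2.97 and 3.04 CPM in the ICM and from 124 and 126 to 3.51 and 3.09 CPM in 2iES cells. Its effects of -4.93 ± 0.11 and -5.23 ± 0.11 differed by 0.31 ± 0.15 (SE; adjusted p = 0.164), and the difference was not called. Psmb10, a catalytic subunit of the immunoproteasome, had 8.83 and 9.35 CPM (DMSO) against 0.186 and 0.179 CPM (dTAG13) in the ICM and 74.8 and 67.7 CPM (DMSO) against 2.34 and 1.60 CPM (dTAG13) in 2iES cells. It was the more abundant in 2iES cells and fell in both stages, with effects of -5.60 ± 0.26 and -5.15 ± 0.17. Fbxl6, an F-box protein gene, had effects of -5.12 and -4.86, and Slc35c2, of the nucleotide sugar transporter family, of -6.12 and -6.37, with interactions of -0.26 ± 0.48 and 0.25 ± 0.91 that were not called, the second with a wide error.

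A second set fell in both stages but much further in 2iES cells. Wdr3 (chr3:100138180-100162407), a component of the small-subunit processome that builds the 40S ribosome, had 62.0 and 61.2 CPM (DMSO) against 25.3 and 26.3 CPM (dTAG13) in the ICM, and 53.7 and 60.4 CPM (DMSO) against 2.79 and 1.72 CPM (dTAG13) in 2iES cells. The DMSO levels lay close together, those left after dTAG13 did not, and the log2 interaction of Wdr3 was 3.38 ± 0.22 (SE; adjusted p = 1.17e-05), or 2.21 with effective length as an offset. Mcrs1 (chr15:99242817-99251961), a subunit of chromatin-modifying complexes, had 99.0 and 106 CPM (DMSO) against 40.1 and 42.1 CPM (dTAG13) in the ICM. Its values in 2iES cells were 116 and 86.7 CPM (DMSO) against 4.77 and 4.98 CPM (dTAG13), an interaction of 3.06 ± 0.20 (SE; adjusted p = 1.18e-05). Fibp (chr19:5460615-5465051), named for its binding to acidic fibroblast growth factor, fell from 47.2 and 48.3 to 6.31 and 6.22 CPM in the ICM and from 63.4 and 52.1 to 1.26 and 1.20 CPM in 2iES cells, and the log2 interaction of Fibp, 2.61, was 1.74 with that offset. Lypla2, a thioesterase gene, had 675 and 734 counts with DMSO and 13 and 19 with dTAG13 in the ICM, and 1052 and 616 against 2 and 2 counts in 2iES cells. The log2 interaction of Lypla2 was 2.95 ± 0.80 (SE; adjusted p = 0.0156), and the call was lost with limma voom weights by stage (adjusted p = 0.138) and with all 18 libraries in the fit (0.127), the range over alternatives being 4.16e-06 to 0.138.

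Promoters of this set were searched for the GABPA motif, taken as CCGGAAGT on either strand (its reverse complement is ACTTCCGG), in windows from 250 bases before to 50 bases after each RefSeq start. Counted by window and not by gene, 3.89% of all 32851 windows held the motif. Windows were found for 8028 of the 9881 protein-coding genes expressed in both stages (81.2%), and 844 of these 8028 genes (10.5%) held the motif. The share was 58 of 131 (44.3%) among genes that fell in both stages and further in 2iES cells. It was 120 of 542 (22.1%) among genes that fell in both stages with no called interaction, 81 of 489 (16.6%) among those down in 2iES cells and not called in the ICM, and 27 of 260 (10.4%) among those down in the ICM and not called in 2iES cells. Among genes that rose, it was 4 of 223 (1.79%) for the ICM alone, 23 of 359 (6.41%) for 2iES cells alone and 1 of 47 (2.13%) for those up in both and further in 2iES cells. For the genes that fell further in the ICM, and for the opposite classes and those up in both and further in the ICM, under 80% had a window and the search was void. A match is a description of the letters only and not evidence of binding.

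The stretches around the motif are shown for some genes of the set and some genes compared with it below, read 5′ to 3′ on the strand of the gene, with the motif or its reverse complement in capitals. The first base of the motif lies 47 bases before the RefSeq start in Fibp, 55 in Mrpl27, 45 in Psmd6, 47 in Rfc3, 58 in Wdr46, 111 in Twnk and 30 in Slc35c2.
Fibp (GRCm38.p6 chr19:5460520-5460606, plus strand): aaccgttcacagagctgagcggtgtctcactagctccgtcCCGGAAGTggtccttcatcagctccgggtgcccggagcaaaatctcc
Mrpl27 (GRCm38.p6 chr11:94653696-94653783, plus strand): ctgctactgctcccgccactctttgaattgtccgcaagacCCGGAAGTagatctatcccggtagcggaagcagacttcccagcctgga
Psmd6 (GRCm38.p6 chr14:14120946-14121030, minus strand): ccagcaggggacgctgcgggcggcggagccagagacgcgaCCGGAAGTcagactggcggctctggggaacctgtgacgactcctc
Rfc3 (GRCm38.p6 chr5:151651209-151651295, minus strand): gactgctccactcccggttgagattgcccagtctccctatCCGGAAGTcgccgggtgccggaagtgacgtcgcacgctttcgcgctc
Wdr46 (GRCm38.p6 chr17:33940625-33940712, plus strand): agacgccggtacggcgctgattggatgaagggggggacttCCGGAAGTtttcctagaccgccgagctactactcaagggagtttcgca
Twnk (GRCm38.p6 chr19:45006407-45006494, plus strand): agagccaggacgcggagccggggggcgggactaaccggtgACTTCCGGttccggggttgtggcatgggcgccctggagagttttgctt
Slc35c2 (GRCm38.p6 chr2:165287839-165287908, minus strand): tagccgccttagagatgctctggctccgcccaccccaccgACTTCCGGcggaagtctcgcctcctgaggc
The first 4 genes fell in both stages and further in 2iES cells, Wdr46 and Twnk were called down only in 2iES cells, and Slc35c2 fell in both with no called interaction. The Rfc3 stretch holds another copy of the motif in lower case, and in Wdr46 the copies on the opposite strands overlap. The motif of Twnk also lies in the window of its divergent neighbour Mrpl43, whose start is on the other strand. Not shown are Lypla2 of the set, with the motif 61 bases before its start, and Mterf1a, called down only in the ICM, with it 24 bases before. Of the 118 genes that the naming rule gave, 10 had the motif before a start. Wdr3, Mcrs1, Ebna1bp2 and Mrps34 of the set were not among them.

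**Figure D3:**
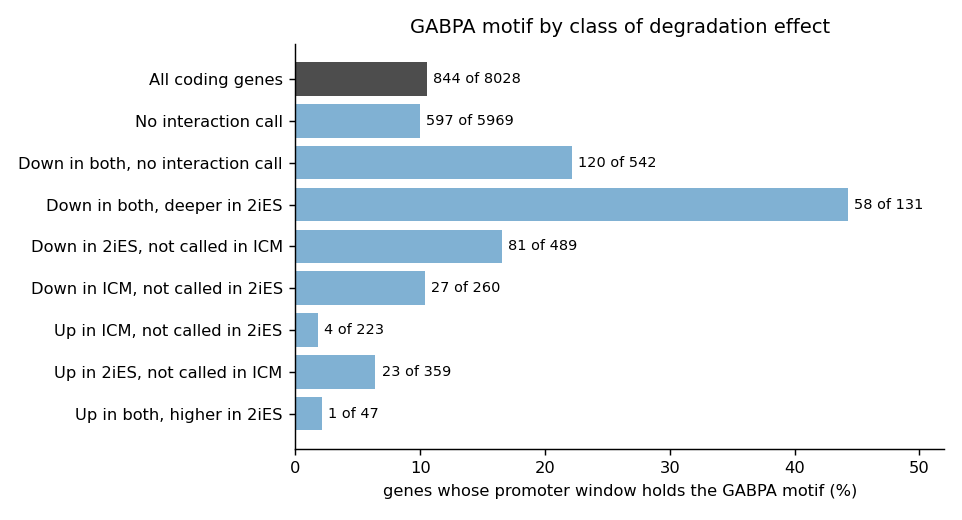
Share (%) of protein-coding genes with a RefSeq promoter window that hold CCGGAAGT on either strand, by class of degradation effect, with the number of genes beside each bar. The dark bar is all coding genes expressed in both stages (844 of 8028), and the longest bar, 58 of 131, is that of genes that fell in both stages and further in 2iES cells.

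The same set of 169 genes was also read in samples that the interaction did not use, late 2-cell embryos and morulae given 1 µM dTAG13 or DMSO. Treatment ran from the zygote to the late 2-cell stage, and from after the 2-cell stage to the morula. Stage and time of exposure thus changed together here too. In late 2-cell embryos of the same mouse line treated with dTAG13 (3 libraries a group), the median log2 effect of the 156 of them with a mean FPKM of 1 was -0.93 (quartiles -1.77 and -0.30), against -0.06 (-0.36 and 0.17) for all genes that could be called. In morulae (2 libraries a group) it was -0.28 (-0.59 and -0.04) against 0.07 (-0.21 and 0.35). The 125 genes that fell in both stages and further in the ICM had medians of -0.29 in late 2-cell embryos and -0.51 in morulae, the latter the lower of the 2 sets. The 733 genes that fell with no called interaction had medians of -0.46 and -0.24 in these 2 stages. Genes down in the ICM and not called in 2iES cells had -0.07 and -0.08, and genes down in 2iES cells and not called in the ICM had -0.13 and 0.04.

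Genes of ribosome production were called down more often in 2iES cells. Of 97 genes of ribosome biogenesis tested, 22 were called down in the ICM and 34 in 2iES cells, with 12 higher and 2 lower interactions and median effects of -0.41 and -0.63. The shares down, 22.7% and 35.1%, were above those of all genes expressed in both stages, but the share of higher interactions, 12.4%, was near that of the same genes. Ebna1bp2 (chr4:118620799-118627776), needed for assembly of the large ribosomal subunit, had 246 and 248 CPM (DMSO) against 70.9 and 68.8 CPM (dTAG13) in the ICM and 302 and 271 CPM (DMSO) against 18.1 and 16.7 CPM (dTAG13) in 2iES cells, with an interaction of 2.22 ± 0.11 (SE; adjusted p = 4.82e-06). Wdr46, a nucleolar scaffold gene, had 41.0 and 42.6 CPM (DMSO) against 33.4 and 34.7 CPM (dTAG13) in the ICM, an effect of -0.30 ± 0.12 that was not called. In 2iES cells it fell from 18.9 and 15.0 to 4.73 and 4.92 CPM. The proteins of the cytosolic ribosome itself moved little, with 3 and 4 of 78 called down and median effects of -0.11 and -0.04. The 1 call among them was Rpl39, and the log2 interaction of Rpl39, -1.10, became -0.70, under the size for a call, without replicate 1 of the 2iES DMSO pair, and missed the threshold (adjusted p of 0.0518 to 0.0708) when any of 4 other libraries was left out.

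Of 78 mitochondrial ribosomal protein genes, 9 were called down in the ICM (11.5%) and 26 in 2iES cells (33.3%). All 6 called interactions were higher in the ICM. That is 7.69% of the list, under the share of all genes expressed in both stages, with none in the other direction. Mrpl27 (chr11:94653767-94660089) fell from 95.3 and 97.0 to 13.1 and 11.6 CPM in the ICM and from 176 and 169.6 to 6.53 and 6.24 CPM in 2iES cells, so that the fall was deep in both stages and deeper in the second, with an interaction of 1.80 ± 0.13 (SE; adjusted p = 1.91e-05). Mrps34 had effects of -1.81 ± 0.15 and -3.19 ± 0.15, both called. Mrpl43 had an effect of -0.96 ± 0.11 in the ICM, just under the size for a call, and of -3.27 ± 0.12 in 2iES cells. Among 27 genes of mitochondrial translation, 4 fell in the ICM (14.8%) and 10 in 2iES cells (37.0%), against 15.7% and 20.3% of all genes expressed in both stages. All 4 interactions were higher in the ICM (14.8%), near the share of those genes (12.7%). Gfm1 (chr3:67430096-67476529), the mitochondrial elongation factor G, had 78.0 and 80.6 CPM (DMSO) against 76.6 and 74.8 CPM (dTAG13) in the ICM, which was not called, and 42.5 and 47.4 CPM (DMSO) against 14.9 and 15.5 CPM (dTAG13) in 2iES cells, which was, and the interaction was 1.5 ± 0.13 (SE; adjusted p = 3.68e-05). Sars2, the mitochondrial seryl-tRNA synthetase, gave 1.77 ± 0.23 (SE; adjusted p = 4.04e-04). Of 14 genes that copy or express mitochondrial DNA, 5 (35.7%) and 6 (42.9%) fell, against 15.7% and 20.3% of all genes expressed in both stages. Tfb1m, the methyltransferase of the mitochondrial small ribosomal RNA, had a called effect of -1.97 ± 0.14 in 2iES cells against -0.28 ± 0.14 in the ICM, and the helicase gene Twnk of -2.37 ± 0.18 against -0.97 ± 0.15. Mterf1a, a mitochondrial termination factor gene, went the other way with an interaction of -1.27 ± 0.27. Twnk and Mrpl43 overlap on opposite strands, as do Wdr3 and Gdap2, Mrpl27 and Eme1, Gfm1 and Lxn, and Tfb1m and Tiam2, and reads of such pairs were not separated by strand.

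Subunits of oxidative phosphorylation showed few calls. Of 36 complex I subunits, 2 fell in the ICM, 5 fell and 2 rose in 2iES cells, and none had a called interaction. Of 38 other nuclear genes of the chain, 2 and 3 fell. Cox6b1, a subunit of cytochrome oxidase, was the 1 gene of these with a called interaction (-1.16), which became -0.82 without replicate 1 of the 2iES DMSO pair. The 13 protein-coding genes of the mitochondrial genome had median effects of 0.64 in the ICM and 1.81 in 2iES cells, with none called for the interaction. That median difference of -1.26 was -0.47 without replicate 1 and -3.0 without replicate 2 of the 2iES DMSO pair, so its size rested on which of these libraries was kept.

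Proteasome and replication genes were divided. Of 37 proteasome genes, 5 fell in the ICM (13.5%, under the share of all genes expressed in both stages) and 11 in 2iES cells (29.7%). Psmd6 (chr14:14112174-14120984), of the regulatory particle, had 371 and 372 CPM (DMSO) against 151 and 148 CPM (dTAG13) in the ICM and 427 and 398 CPM (DMSO) against 52.8 and 59.4 CPM (dTAG13) in 2iES cells, an interaction of 1.57 ± 0.11 (SE; adjusted p = 1.43e-05). Psmd3, another such subunit, had 163 and 169 CPM with DMSO and 228 and 223 CPM with dTAG13 in the ICM, an effect of 0.44 ± 0.12 that was not called, and a called effect of -1.26 ± 0.13 in 2iES cells. Psma8, the testis-type alpha subunit, had 195 and 185 counts in the ICM with DMSO and 0 in both dTAG13 libraries, and was therefore at least 61.9-fold lower against a floor of 3 counts per library. Its effect in 2iES cells was -1.99 ± 0.15, also called. Of 32 DNA replication genes, 14 fell in the ICM (43.8%) and 13 in 2iES cells (40.6%), against 15.7% and 20.3% of all genes expressed in both stages. Interactions were called for 3 in each direction (9.38%), under the shares of those genes (13.3% lower and 12.7% higher). Rfc3 (chr5:151642756-151651242), of the clamp loader, had effects of -1.63 ± 0.08 and -3.70 ± 0.09, a fall in both stages. Cdc6, which loads the replicative helicase, was called down only in 2iES cells (-1.05 ± 0.11 against 0.24 ± 0.10), and Orc1, of the origin recognition complex, only in the ICM (-1.35 ± 0.10 against -0.18 ± 0.09), both with a called interaction.

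Genes down in 2iES cells and not called in the ICM had varied functions. Hpdl, a dioxygenase-like gene, had the largest interaction of those named (5.89 ± 0.41), with an effect of 0.97 ± 0.21 in the ICM, and the chloride channel gene Clic3 had 4.01 ± 0.51, with reads not separated from those of Paxx on the opposite strand. Prkab1 (chr5:116013586-116024508), the beta-1 subunit of the energy sensor AMPK, had 182 and 181 CPM (DMSO) against 97.7 and 94.8 CPM (dTAG13) in the ICM, an effect of -0.92 ± 0.18. Its values in 2iES cells went from 46.1 and 31.5 to 0.990 and 0.286 CPM, nearly to the loss of the transcript, and the interaction was 4.91 ± 0.38 (SE; adjusted p = 2.44e-05). Slc25a14, a carrier of the mitochondrial inner membrane, had a called effect of -4.49 ± 0.20 in 2iES cells against -0.57 ± 0.16 in the ICM. Tspan1, a tetraspanin gene, had an effect of 0.56 ± 0.12 in the ICM, which was not called, and fell from 27.1 and 26.9 to 3.15 and 2.58 CPM in 2iES cells. Of 20 glycolysis genes, 3 fell in the ICM (15.0%) and 4 in 2iES cells (20.0%), near the shares of all genes expressed in both stages, with 3 higher and 2 lower interactions. Ldha, the lactate dehydrogenase of glycolytic cells, fell in 2iES cells from 897 and 727 to 216 and 201 CPM, and its effect in the ICM was -0.47 ± 0.10. Its partner Ldhb moved oppositely in 2iES cells, from 251 and 223 to 539 and 575 CPM, with -0.32 ± 0.12 in the ICM. The triose phosphate isomerase gene Tpi1 had a called effect of -1.52 ± 0.08 in 2iES cells, and its interaction was 1.73 ± 0.11.

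Among pluripotency genes, more effects were lower in the ICM than higher. Of 31 genes of the naive network, 15 fell in the ICM and 10 in 2iES cells, with median effects of -0.94 and -0.24. Interactions were lower in the ICM for 9 (29.0%) and higher for 4 (12.9%), against 13.3% and 12.7% of all genes expressed in both stages. Of 189 EPI genes tested from the study's list, which was made on other data, 67 (35.4%) had a lower and 7 a higher interaction, and 55 of the 67 were also called without either of the 2iES DMSO libraries. Sox2 (chr3:34650405-34652461), a core pluripotency factor that marks the EPI, had 33.5 and 34.1 CPM (DMSO) against 7.05 and 6.67 CPM (dTAG13) in the ICM. Its values in 2iES cells were 31.6 and 46.5 CPM (DMSO) against 50.7 and 52.1 CPM (dTAG13). It fell in the ICM and was not called in 2iES cells, and the interaction was -2.70 ± 0.24 (SE; adjusted p = 4.33e-05). Etv5 (chr16:22381309-22439719), an ETS factor, went from 81.2 and 78.1 to 14.7 and 16.1 CPM in the ICM and from 63.9 and 73.6 to 95.1 and 94.3 CPM in 2iES cells, an interaction of -2.83 ± 0.14 (SE; adjusted p = 3.80e-06). Fgf4, the signal by which EPI cells direct neighbours to PrE, had a called effect of -2.10 ± 0.11 in the ICM, and its effect was -0.37 ± 0.10 in 2iES cells.

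Prdm14 (chr1:13113457-13127163), a repressor that protects the naive state, fell in both stages but further in the ICM, with 28 and 29.1 CPM (DMSO) against 1.95 and 1.61 CPM (dTAG13) there and 7.52 and 7.65 CPM (DMSO) against 2.66 and 2.29 CPM (dTAG13) in 2iES cells. The surface co-receptor gene Tdgf1 had an interaction of -1.02 ± 0.24 (SE; adjusted p = 0.00763), which fell to -0.70 without replicate 1 of the 2iES DMSO pair and was not called. Nanog fell in both stages, from 149 and 144 to 56.8 and 54.9 CPM in the ICM and from 203 and 249 to 103 and 106 CPM in 2iES cells, and its interaction of -0.28 ± 0.14 (SE; adjusted p = 0.132) was not called. Its effect in 2iES cells was -0.98, just under the size for a call, without replicate 2 of the DMSO pair. Pou5f1 (chr17:35506018-35510772), which encodes OCT4, stood on the other side. It had 234 and 239 CPM (DMSO) against 171 and 170.1 CPM (dTAG13) in the ICM, an effect of -0.47 ± 0.11 that was not called. The values of 224 and 173 CPM (DMSO) against 61.2 and 57.3 CPM (dTAG13) were those in 2iES cells, where it was called down, and the interaction was 1.27 ± 0.16 (SE; adjusted p = 2.70e-04). Marker sums moved with these values. Summed EPI markers, of which these genes are part, went from 734 and 741 to 388 and 377 FPKM there and PrE markers from 619 and 618 to 1196 and 1196 FPKM, and in 2iES cells EPI markers went from 520 and 637 to 402 and 366 FPKM. Their part in these values was not tested.

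Some members of the study's EPI list had larger interactions than the pluripotency factors above. Ifitm3 (chr7:141009586-141010770), an antiviral membrane protein, had 38.2 and 36.9 CPM (DMSO) against 3.25 and 3.94 CPM (dTAG13) in the ICM. It was far more abundant in 2iES cells, with 533 and 539 CPM (DMSO) against 653 and 686 CPM (dTAG13), and its interaction was -3.70 ± 0.12 (SE; adjusted p = 1.20e-06). Ifitm1, of the same family, had effects of -5.91 ± 0.30 in the ICM and -1.0 ± 0.13 in 2iES cells, both called. Ubd, a ubiquitin-like modifier induced by interferon, had called effects of -4.96 ± 0.53 and -1.22 ± 0.29, with 40.3 and 91.3 CPM in the 2iES DMSO pair, and the 2iES effect was -0.54, under the size for a call, without replicate 2 of that pair. The study's list of ICM genes had 171 lower (21.3%) and 69 higher (8.59%) interactions of 803 tested, against 13.3% and 12.7% of all genes expressed in both stages. Of 15 formative and primed genes tested, 3 fell in the ICM and 2 in 2iES cells and none had a called interaction.

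Several genes were no longer detected in the ICM with dTAG13 and remained in 2iES cells. Calca, the calcitonin gene, had 39 and 33 counts in the ICM with DMSO and 0 in both dTAG13 libraries, at least 11.7-fold lower, and had 13.2 and 13.8 CPM (DMSO) against 15.9 and 15.4 CPM (dTAG13) in 2iES cells. The homeobox gene Rhox9 was at least 5.02-fold lower in the ICM, and had 17.1 and 16.4 CPM (DMSO) against 21.7 and 24.3 CPM (dTAG13) in 2iES cells. Dazl, an RNA-binding protein of germ cells, fell from 33.3 and 32.7 to 3.02 and 4.16 CPM in the ICM against an effect of 0.66 ± 0.15 in 2iES cells, which was not called. The sugar transporter gene Slc50a1 fell in both stages, from 12.6 and 13.0 CPM to 0 in both libraries in the ICM, at least 93.6-fold lower, and with an effect of -3.67 ± 0.14 in 2iES cells. Tmem45a, a membrane protein gene, was at least 14.6-fold lower in the ICM and had a called effect of -1.09 ± 0.13 in 2iES cells.

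ATF4 drives the integrated stress response, and more of its targets fell than rose in both stages. Of 41 tested, 16 fell and 3 rose in the ICM, and 14 fell and 6 rose in 2iES cells. Interactions were lower in the ICM for 12 (29.3%) and higher for 5 (12.2%), against 13.3% and 12.7% of all genes expressed in both stages. All 17 were also called without either of the 2iES DMSO libraries. Gpt2 (chr8:85492576-85527560), the mitochondrial alanine aminotransferase, had 37.2 and 36.8 CPM (DMSO) against 6.08 and 5.73 CPM (dTAG13) in the ICM and 23.1 and 21.7 CPM (DMSO) against 34.9 and 34.5 CPM (dTAG13) in 2iES cells, so that the groups stood apart in both stages in opposite directions. Only the fall in the ICM reached the size of a call, and the log2 interaction of Gpt2 was -3.28 ± 0.15 (SE; adjusted p = 3.11e-06). With effective length as an offset it was -4.22, and by FPKM the difference in 2iES cells was 1.74 on the log2 scale, so the call in 2iES cells depended on isoform length. Trib3, a pseudokinase induced by the pathway, fell from 61.3 and 63.8 to 12.8 and 15.8 CPM in the ICM, and its effect in 2iES cells was 0.50 ± 0.16. Of 15 genes of the unfolded protein response in the endoplasmic reticulum, none had a called interaction.

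The genes with opposite calls had varied functions. Atf3 (chr1:191170296-191218039), a stress-induced transcription factor, had 20.5 and 21.2 CPM (DMSO) against 5.34 and 3.85 CPM (dTAG13) in the ICM. The corresponding values in 2iES cells were 2.98 and 2.82 CPM (DMSO) against 14.7 and 14.1 CPM (dTAG13). It was called down in the former and up in the latter, with an interaction of -4.49 ± 0.24 (SE; adjusted p = 5.46e-06). Cpne2, a calcium-binding copine gene, fell from 2.62 and 2.04 to 0.557 and 0.537 CPM in the ICM and rose from 3.15 and 1.97 to 17.6 and 17.0 CPM in 2iES cells. The channel gene Trpm1 was at least 26.9-fold lower in the ICM, from 97 and 69 counts to 0 in both libraries, and rose by 2.15 ± 0.23 in 2iES cells. In the other direction stood Dapk3 (chr10:81183005-81193197), a death-associated protein kinase, with 2.66 and 2.50 CPM (DMSO) against 37.1 and 37.9 CPM (dTAG13) in the ICM and 46.6 and 27.6 CPM (DMSO) against 10.6 and 11.5 CPM (dTAG13) in 2iES cells, an interaction of 5.61 ± 0.33 (SE; adjusted p = 7.53e-06). The adaptor gene Blnk rose by 3.08 ± 0.22 in the ICM and had a called effect of -1.22 ± 0.23 in 2iES cells. For the forkhead gene Foxr1 the effects were 1.78 ± 0.20 and -2.61 ± 0.25, and for Rpph1, the RNA of ribonuclease P, 2.44 ± 0.16 and -2.81 ± 0.15. Leaving out either library of the 2iES DMSO pair gave 110 and 158 genes with opposite calls in place of 123.

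**Figure D4:**
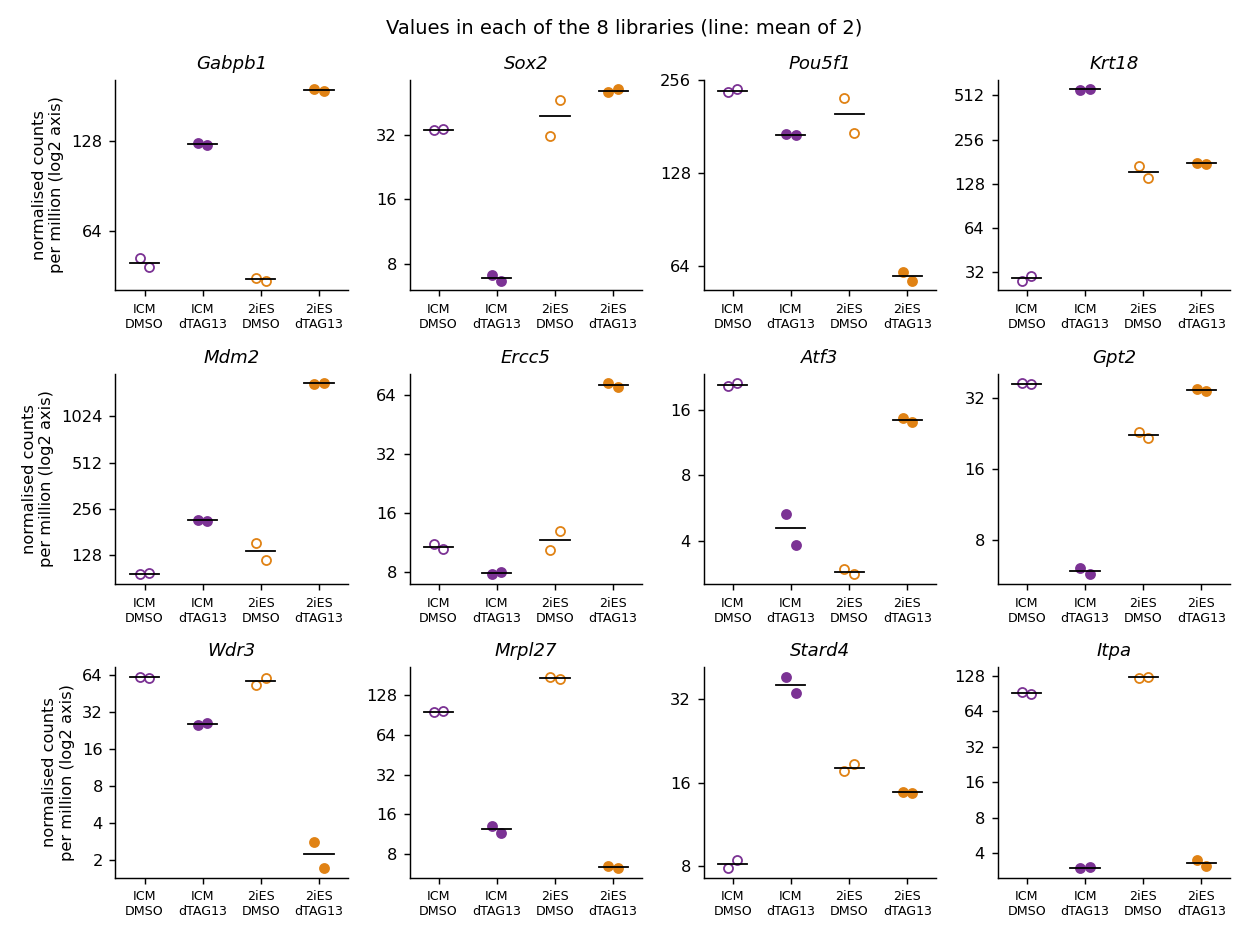
Normalised CPM (log2 axis) of 12 genes in each of the 8 libraries, with open points for DMSO, filled points for dTAG13 and a line at the mean of 2 libraries. Gabpb1 rose in both stages, Sox2 and Gpt2 fell only in the ICM, Pou5f1, Wdr3 and Mrpl27 fell further in 2iES cells, Krt18 and Stard4 rose only in the ICM, Mdm2 rose further and Ercc5 only in 2iES cells, Atf3 moved oppositely and Itpa fell in both with no called interaction.

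Trophectoderm genes were called up more often in the ICM. Of 28 TE markers tested, 16 rose and 2 fell in the ICM, while 3 rose and 3 fell in 2iES cells, and 12 interactions (42.9%) were higher and 1 lower in the ICM. All 13 were also called without either of the 2iES DMSO libraries. Krt18 (chr15:102028180-102032027), a keratin of the first epithelium, had 28 and 30.2 CPM (DMSO) against 562 and 564 CPM (dTAG13) in the ICM. Its values in 2iES cells were 170.3 and 139 CPM (DMSO) against 177 and 176 CPM (dTAG13). The dTAG13 libraries stood far above the DMSO libraries in the ICM and close to them in 2iES cells, with an interaction of 4.09 ± 0.14 (SE; adjusted p = 1.20e-06). Its partner Krt8 gave 2.55 ± 0.15 (SE; adjusted p = 8.74e-06). Both keratins have many processed pseudogenes, and how reads were divided among such copies makes their values uncertain. Tspan8, a tetraspanin, went from 11.7 and 12.1 to 115 and 108 CPM in the ICM. Gata3 and Cdx2 are factors that specify the lineage. Gata3 rose in the ICM from 4.63 and 4.44 to 31.4 and 32.1 CPM and Cdx2 from 0.600 and 1.20 to 3.48 and 4.97 CPM, but both stayed under an FPKM of 1 in 2iES cells, so that no interaction could be called. Eomes (chr9:118478212-118486132) was called up in the ICM and down in 2iES cells, with an interaction of 2.62 ± 0.28 (SE; adjusted p = 1.35e-04). Of 960 TE genes of the study's list, 171 (17.8%) had a higher and 53 (5.52%) a lower interaction. The shares of all genes expressed in both stages were 12.7% and 13.3%. Immunosurgery is meant to remove TE cells, and more TE cells in the dTAG13 samples cannot be told apart from more of these RNAs per ICM cell.

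Primitive endoderm markers had few called interactions, in both directions. Of 23 PrE markers tested, 4 rose in the ICM and 3 in 2iES cells and none fell, with median effects of 0.58 and 0.72. Of these 23, 8 were expressed in both stages, and 2 had a lower and 2 a higher interaction. That is 8.70% each, under the 13.3% and 12.7% of all genes expressed in both stages. Dab2 (chr15:6299788-6440712), an endocytic adaptor of the PrE, rose from 318 and 304 to 989.8 and 985 CPM in the ICM, and its effect in 2iES cells was -0.70 ± 0.17, not called, at a level of 6.98 and 6.92 CPM with dTAG13. Cited1, a transcriptional co-regulator, gave 2.81 ± 0.24 (SE; adjusted p = 4.09e-05). Cubn, the endocytic receptor cubilin, rose in both stages, from 125 and 129 to 297 and 288 CPM in the ICM and from 0.420 and 0.940 to 13.1 and 12.4 CPM in 2iES cells, where it had been nearly absent. The basement membrane gene Col4a1 had an effect of 0.96 ± 0.11 in the ICM, not called, and rose by 2.48 ± 0.17 in 2iES cells. In 2iES cells Cubn and Col4a1 reached a mean FPKM of 1 only with dTAG13 (0.05 against 1.005, and 0.37 against 1.445). Gata6 rose by 3.09 ± 0.24 there but reached only 0.51 FPKM, so that its interaction of -2.12 ± 0.26 could not be called. Sox17 had 148 and 152 CPM (DMSO) against 138 and 137 CPM (dTAG13) in the ICM and under 1 CPM in 2iES cells. Of 252 PrE genes of the study's list, 39 (15.5%) had a higher and 15 (5.95%) a lower interaction. The first share was near and the second under those of all genes expressed in both stages (12.7% and 13.3%).

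Cholesterol synthesis genes had interactions in 1 direction only. Of 23 tested, 8 (34.8%) were higher in the ICM and none lower, 3 rose and 2 fell in the ICM, 1 rose and 5 fell in 2iES cells, and 7 of the 8 were also called without either of the 2iES DMSO libraries. The median effects were 0.26 and -0.45. Of all genes expressed in both stages, 12.7% had a higher and 13.3% a lower interaction. Dhcr7 (chr7:143823145-143848410), the last enzyme of the pathway, had 3.17 and 2.82 CPM (DMSO) against 12.9 and 10.2 CPM (dTAG13) in the ICM and 8.15 and 7.99 CPM (DMSO) against 4.68 and 4.75 CPM (dTAG13) in 2iES cells. The rise was called and the fall was not, and the interaction was 2.72 ± 0.25 (SE; adjusted p = 5.22e-05). The sterol carrier gene Stard4 went from 7.89 and 8.47 to 38.5 and 33.7 CPM in the ICM against 17.6 and 18.7 CPM (DMSO) against 14.9 and 14.7 CPM (dTAG13) in 2iES cells. Nsdhl, a dehydrogenase of the pathway, was called in neither stage, at 0.76 ± 0.12 and -1.0 ± 0.13, and had a called interaction of 1.76 ± 0.18. Its 2iES effect, just under the size for a call, was -1.10 without replicate 1 and -0.93 without replicate 2 of the DMSO pair.

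Targets of p53, the DNA damage factor, were called up more often than all genes expressed in both stages, in the ICM and in 2iES cells. Of 32 tested, 14 rose and 1 fell in the ICM and 19 rose and none fell in 2iES cells, or 43.8% and 59.4% up, against 9.49% and 14.2% of all genes expressed in both stages. All 10 called interactions were lower in the ICM (31.2%), 7 of them also without either of the 2iES DMSO libraries, and the median effects were 1.07 and 1.46. Mdm2 (chr10:117688875-117710758), the ubiquitin ligase that p53 induces against itself, had 95.7 and 97.6 CPM (DMSO) against 217 and 214 CPM (dTAG13) in the ICM. Its values in 2iES cells were 153 and 119 CPM (DMSO) against 1674 and 1689.8 CPM (dTAG13). The groups were apart in both stages, and the interaction was -2.47 ± 0.14 (SE; adjusted p = 7.48e-06). Ercc5 (chr1:44147744-44181260), a nuclease of DNA excision repair, had 11.1 and 10.5 CPM (DMSO) against 7.80 and 8.01 CPM (dTAG13) in the ICM, where it was not called, and 10.4 and 13.0 CPM (DMSO) against 73.2 and 69.8 CPM (dTAG13) in 2iES cells, an interaction of -3.06 ± 0.18 (SE; adjusted p = 8.09e-06). Apaf1, which activates caspases, rose in 2iES cells from 4.75 and 8.38 to 46.1 and 48.9 CPM and had an effect of 0.99 ± 0.21 in the ICM.

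Among genes that FGF/ERK signalling induces, more effects were lower in the ICM than higher. Of 19 tested, 13 were expressed in both stages, 7 had a lower and 1 a higher interaction, and 5 of the 7 were also called without either of the 2iES DMSO libraries. Etv5, given above, is among them. Of all genes expressed in both stages, 13.3% had a lower and 12.7% a higher interaction. Fos (chr12:85473890-85477273), an immediate early gene, had 25.1 and 24.3 CPM (DMSO) against 22.6 and 20.0 CPM (dTAG13) in the ICM. Its values in 2iES cells were 2.14 and 1.71 CPM (DMSO) against 9.36 and 10.5 CPM (dTAG13). The rise in 2iES cells started from a lower level, and the interaction was -2.58 ± 0.22 (SE; adjusted p = 3.74e-05). Phlda1, a feedback gene, went from 48.6 and 44.6 to 29.3 and 30.4 CPM in the ICM, which was not called, and from 5.34 and 4.19 to 16.2 and 17.7 CPM in 2iES cells. The medium of 2iES cells holds a MEK inhibitor and that of the embryos does not, a difference that cannot be told apart from stage.

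Other rises differed in size between the stages. Mcam (chr9:44134469-44142727), a cell adhesion molecule, had 2.53 and 3.01 CPM (DMSO) against 1.72 and 1.3 CPM (dTAG13) in the ICM and 7.10 and 6.33 CPM (DMSO) against 74.6 and 70.8 CPM (dTAG13) in 2iES cells, an interaction of -4.31 ± 0.24 (SE; adjusted p = 6.19e-06). Traf3ip2, a signalling adaptor, rose in 2iES cells from 9.67 and 10.0 to 79.2 and 79.4 CPM and had an effect of -0.92 ± 0.14 in the ICM. Fbp1, an enzyme of gluconeogenesis, was nearly silent in 2iES cells with DMSO, at 0.294 and 0.556 CPM, and reached 7.29 and 6.58 CPM with dTAG13, close to its level of 8.72 and 8.32 CPM in the ICM with dTAG13. The cilium gene Bbs7 (chr3:36573142-36613477) rose in both stages, from 1.63 and 2.22 to 5.43 and 5.23 CPM in the ICM and from 10.1 and 10.3 to 223 and 235 CPM in 2iES cells. Tmtc3, an enzyme of the endoplasmic reticulum, rose by 1.32 ± 0.15 and 3.97 ± 0.15. The peptide transporter gene Slc15a2 rose further in the ICM, from 1.16 and 0.787 to 37.5 and 36.6 CPM, against an effect of 1.04 ± 0.29 in 2iES cells that was 0.59, under the size for a call, without replicate 1 of the DMSO pair. So did Anxa8, an annexin, with effects of 3.35 ± 0.20 and 1.27 ± 0.17.

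Germline genes had interactions in both directions. Of 12 tested, 3 had a lower and 3 a higher interaction (25.0% each), against 13.3% and 12.7% of all genes expressed in both stages. Hormad1, a protein of meiotic chromosomes, rose in 2iES cells from 44.8 and 48.9 to 209.7 and 232 CPM and had an effect of -0.44 ± 0.09 in the ICM. Mael, of the piRNA pathway, rose in the ICM by 1.90 ± 0.13 and had an effect of -0.49 ± 0.13 in 2iES cells. Of 14 WNT targets tested, 5 were expressed in both stages and Cdx1, a homeobox gene, had the 1 interaction (2.58 ± 0.26). None of 7 cumulus cell genes and 4 of 7 fibroblast genes passed the count filter, with no called interaction.

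**Figure D5:**
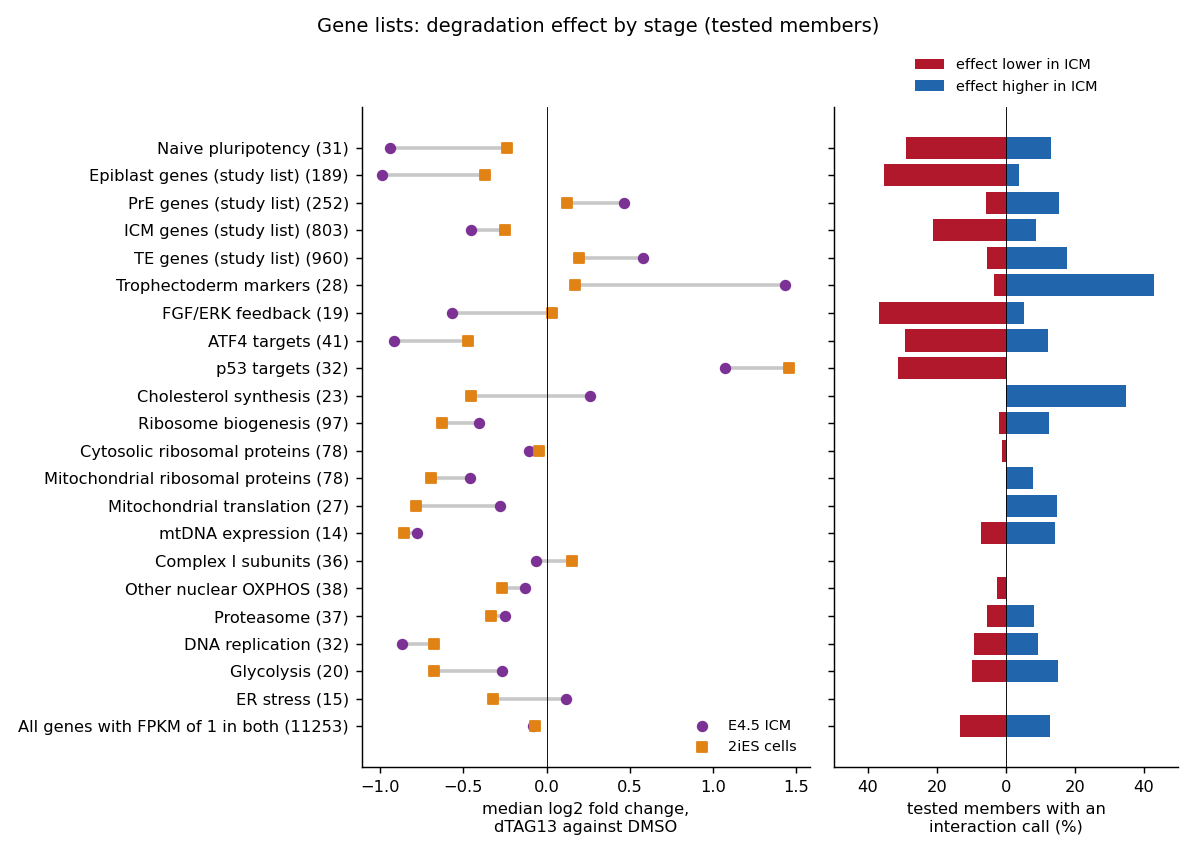
Left, the median log2 fold change of dTAG13 against DMSO over the tested members of each gene list (number in brackets) in the E4.5 ICM (circles) and in 2iES cells (squares). Right, the share of tested members (%) with a called interaction, lower in the ICM to the left and higher to the right; p53 targets had 10 lower and no higher calls, cholesterol synthesis 8 higher and no lower, and TE markers 12 higher and 1 lower.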

How the data were processed

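RNA was reverse transcribed and amplified with SMART-Seq v4 and made into Nextera XT libraries, which do not mark strand, and sequenced as paired ends. The authors trimmed the reads with Trimmomatic v.0.39, aligned them to GRCm38 with STAR and estimated gene values with RSEM, which divides reads among similar genes. The deposited tables give, for each of 55385 genes and each library, the expected count, an estimated count that need not be whole, the FPKM and an effective length. Names were missing for 241 gene IDs.

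Expected counts of the 8 libraries were rounded. Genes reaching 10 counts in 2 or more of them were fitted as 4 group means with edgeR v.4.0.16 (R v.4.3.3), TMM scaling and the quasi-likelihood F-test, and p-values were adjusted by Benjamini-Hochberg over all genes tested. Called genes had an adjusted p-value under 0.05, a log2 effect of 1 or more in size and, in a group of that stage, a mean FPKM of 1 or more (for the interaction, in a group of each stage). SEs were the size of the log2 effect divided by the square root of F, with the spread estimated over all 8 libraries together. Replicates are separate samples in the labels, which do not say whether they are separate cultures or litters, so that p-values measure the spread between these samples. Totals of 18266057 to 27660132 counts limit the precision of genes with few counts. A group at 0 was given a floor of 3 counts per library, which covers counting error only. Alternatives used DESeq2 v.1.42.0 and limma v.3.58.1, and the code was tested on simulated data. Effects in late 2-cell embryos and morulae came from a fit of all 18 libraries.

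Genes were named from the GABP subunits, the cell type markers, the 4 genes of largest interaction with a mean FPKM of 10 in each class of effect, up to 3 called members of each list and genes that fell in both stages with no called interaction. The genes, lists and rules were chosen with earlier results of these data known. Promoter windows and positions were taken from RefSeq (GRCm38.p6). The other series samples, binding and chromatin data among them, were not used here. A gene that the naming rule gave is not reported here.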

Additional observations from a re-analysis of the deposited data

Results flagged for a closer look

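By the interaction term itself, 1493 genes differed between the stages with the lower effect in the ICM and 1426 with the higher, and 123 of these were called in opposite directions in the ICM and in 2iES cells. Among the genes named above with opposite calls, and no group at 0, the log2 interactions were 5.61 for Dapk3, 5.24 for Rpph1, 4.39 for Foxr1, 4.30 for Blnk, 2.62 for Eomes, -4.49 for Atf3 and -4.83 for Cpne2. Rpph1 overlaps Ccnb1ip1 on the same strand, and reads of the shared bases cannot be told apart.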

How the results depend on the processing

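With no fold threshold, 2708 genes were lower and 2876 higher in the ICM, against 1493 and 1426 as reported. Leaving out 1 library at a time gave 1246 to 1770 lower, 1264 to 1741 higher and 102 to 158 opposite calls, and both upper ends came without replicate 2 of the 2iES DMSO pair. The replicate numbers did not pair the samples (correlation of same-numbered deviations -0.05 in the ICM and -0.17 in 2iES cells), and with the replicate number as a block 1436 lower, 1364 higher and 114 opposite calls were made. Crossed pairs, tried after seeing the data, gave 1494, 1388 and 120. All other alternatives stayed within 1.5 times the reported counts: the other scalings, DESeq2, voom, effective length, depth, no count filter, an FPKM of 1 in any group, a test against a fold of 1.5, and all 18 libraries in the fit, which gave the fewest (1063 and 963). The share of lower calls ran from 46.2% to 52.5%. Upper-quartile scaling moved the median 2iES effect of all genes from 0.06 to 0.19. No interaction of a named gene was reversed, and 23 such values lost their call, 8 of them of Tdgf1, while 2097 stayed on their side of the threshold. Among list medians 15 values moved by more than the spread between replicates and 489 did not. The 2iES DMSO pair limits the precision of every 2iES effect, and low counts limit that of the genes at or near 0.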
